A study of Mus musculus with 3 samples.

Results

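The phagocyte NADPH oxidase was followed here through 6 of the 27998 genes counted in bone marrow CD133+ cells: Cybb, Cyba, Ncf1, Ncf4, Rac1 and Rac2. They were chosen as listed subunits of the enzyme and not by their values, and all 6 had UMIs in every band of cells and every library. The data are 3 single-cell libraries from C57BL/6 mice, each made from CD133+ cells sorted by FACS out of the marrow of 3 pooled mice. The young and the control library are labelled 3 months, and the old library is labelled 27 months, whereas the study's design text gives 18.5 months for it and calls the cells intestinal. No allele or agent is named for any of the 3 libraries, and the labels do not say what sets the control apart from the young library. Because each group is 1 library, no test was possible, the spread between mice is unknown, and age, mice and library cannot be told apart.

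The oxidase makes the superoxide of the respiratory burst, with which neutrophils kill ingested microbes. A membrane flavocytochrome, built from the catalytic gp91phox (Cybb) and its stabilizing partner p22phox (Cyba), passes electrons from NADPH to oxygen. It stays idle until the cytosolic p47phox (Ncf1) and p40phox (Ncf4), among other partners, and a Rac GTPase join it at the membrane. Inherited loss of a phox subunit causes chronic granulomatous disease. Neutrophil precursors fill their granules in sequence, with the primary granule enzyme myeloperoxidase (Mpo) first, and the collagenase Mmp8 and the resistin-like Retnlg late, so that these transcripts order the cells without use of the oxidase genes.

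The 3 libraries held 10869 control, 8362 young and 10597 old cells, of which 9780, 7378 and 9681 passed the limits on depth and mitochondrial UMIs, with median depths of 9560.5, 10174.5 and 12690 UMIs. Between 120 and 161 cell barcodes were shared by each pair of libraries. Each level is the number of a gene's UMIs in every 1000000 UMIs of a band (CPM), and its interval, an exact Poisson one at 95%, holds only the error of counting. A UMI marks 1 captured transcript at its 3′ end, so levels are compared between bands and libraries and not between genes. Lineage-defining neutrophil transcripts made up 120591 to 138332 CPM of the cells analysed. The 5 endothelial markers together had 1.53 to 2.89 CPM, with Tek at 0 in all 3 libraries and Cdh5 at 0 in the old one. The series names the cells endothelial-like. The paper also describes its CD133-marked cluster as having hardly any VE-cadherin (Cdh5) expression. It reports high expression of VEGFR2 (Kdr), which is among these 5 markers, in its CD133+ cells. It draws the endothelial potential from lipoprotein uptake, lectin binding, pseudo-time, vessel assays and donor-derived cells with endothelial markers in recipient tissue.

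Groups with markers of other blood cells were set aside, 71 control, 737 young and 1356 old cells. Of the old cells, 533 had basophil transcripts and 761 had haemoglobin transcripts, yet these groups also had 60361 and 148705 CPM of the neutrophil markers, and a rule applied cell by cell marked only 45 and 3 of them. The group of 533 lay mostly at the early end, and its Cybb level was 151 CPM. The levels of the old first band, and the statements that rest on them, are therefore also given with the unmarked cells of both groups returned. Returning them was chosen after seeing the data, and the shares of single cells with a UMI were not recomputed with them.

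The remaining 9692 control, 6582 young and 8294 old cells were placed in 7 bands. Cells with at least 50 Mpo UMIs per 10000 UMIs of the cell formed the first band, 20 to 50 the second and 5 to 20 the third. The fourth had less Mpo and fewer than 2 UMIs per 10000 of Retnlg and Mmp8 together, and bands 5 to 7 had 2 to 10, 10 to 40 and 40 or more of the latter. The first band held 1245 control, 1196 young and 350 old cells, and the last held 270, 317 and 1121. Retnlg and Mmp8 made up 133, 333 and 378 CPM even in the first band of the control, young and old library. The sizes of the middle bands are therefore not comparable between libraries, and the cells in them may not be alike. Cells of the first band may also differ, since Mpo made up 8633, 9809 and 7032 CPM of it in the control, young and old library. The third band held 1300 control, 176 young and 96 old cells. Band 5 took any cell with Mpo under 20, and had 458 CPM of Mpo in the control library against 283 in band 4. The order of these 2 bands is thus not one of falling Mpo. A cell's total also fell along this order, from a median of 12810 to 4474.5 UMIs in the control, 12236 to 4917 in the young and 14567 to 7051 in the old library. From the first to the last band the median gene fell by 0.995 on the log2 scale in the control library. It fell by 0.887 in the young and by 1.01 in the old library. S100a8 rose from 50288 to 205398 CPM over these bands in the control library, and its part in that fall was not tested. A rise in CPM here is thus a larger share of a shrinking total.

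Cybb encodes gp91phox, the haem-carrying catalytic core of the enzyme. It lies on the minus strand of chromosome X of GRCm38 from 9435252 to 9487771 and overlaps no further gene of the annotation. RefSeq promoter windows, 250 bases before to 50 after the annotated start, were matched for 3 of the 6 genes. That of Cybb, chrX:9469275-9469574 on the minus strand (GRCm38.p6), is printed because Cybb had the widest span of the 6 genes between its lowest and highest band; capitals mark a CCAAT box that begins 56 bases before the start and, beginning 10 bases after it, TTCCTC, the reverse complement of GAGGAA.

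Cybb: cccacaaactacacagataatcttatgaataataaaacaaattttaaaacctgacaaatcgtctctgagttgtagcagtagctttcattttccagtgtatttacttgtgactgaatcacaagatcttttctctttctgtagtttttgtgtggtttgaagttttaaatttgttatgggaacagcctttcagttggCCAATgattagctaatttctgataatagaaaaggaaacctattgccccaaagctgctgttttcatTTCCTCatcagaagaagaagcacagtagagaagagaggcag

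CCAAT was found on either strand in 37.4% of all 32851 such windows and GAGGAA, the core bound by PU.1-like ETS factors, in 28.3%. A match of this length is a description and not a binding site. The RefSeq start lies inside the longer span that GENCODE gives the gene.

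Of the 6 genes, Cybb had the highest ratio of its highest to its lowest band in each library. In the control library it had 164 CPM (95% interval 158 to 171) in the first band, 365 in the second, 565 in the third, 643 in the fourth, 674 in the fifth, 869 (825 to 914) in the sixth and 719 in the last. The same course was seen in the young library, at 201, 413, 616, 768, 729.9, 948 and 845 CPM. In the old library the levels were 265, 378, 506, 629, 602, 664 and 518 CPM, and the first of them was 198 with the unmarked cells returned. All 3 libraries were thus lowest among Mpo-rich cells and highest in the sixth band, and fell again in the last. The highest band was 5.28 times the lowest in the control (4.95 to 5.64), 4.73 times in the young and 2.50 times in the old library (2.36 to 2.66), or 3.43 times with those cells returned. From the first to the last band of the old library Cybb was 1.95 times higher, less than Ncf1 at 2.07 times, but 2.66 against 2.27 times with those cells returned. The point of 50% of the highest level was first passed in the third band of the control and young libraries, where Cybb stood at 65.1% and 65.0% of its highest, and in the second band of the old library, at 57.0%. With every cell thinned to 3000 UMIs, a Cybb UMI was found in 37.8% of the control cells of the first band and 92.1% of the sixth.

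**Figure D1:**
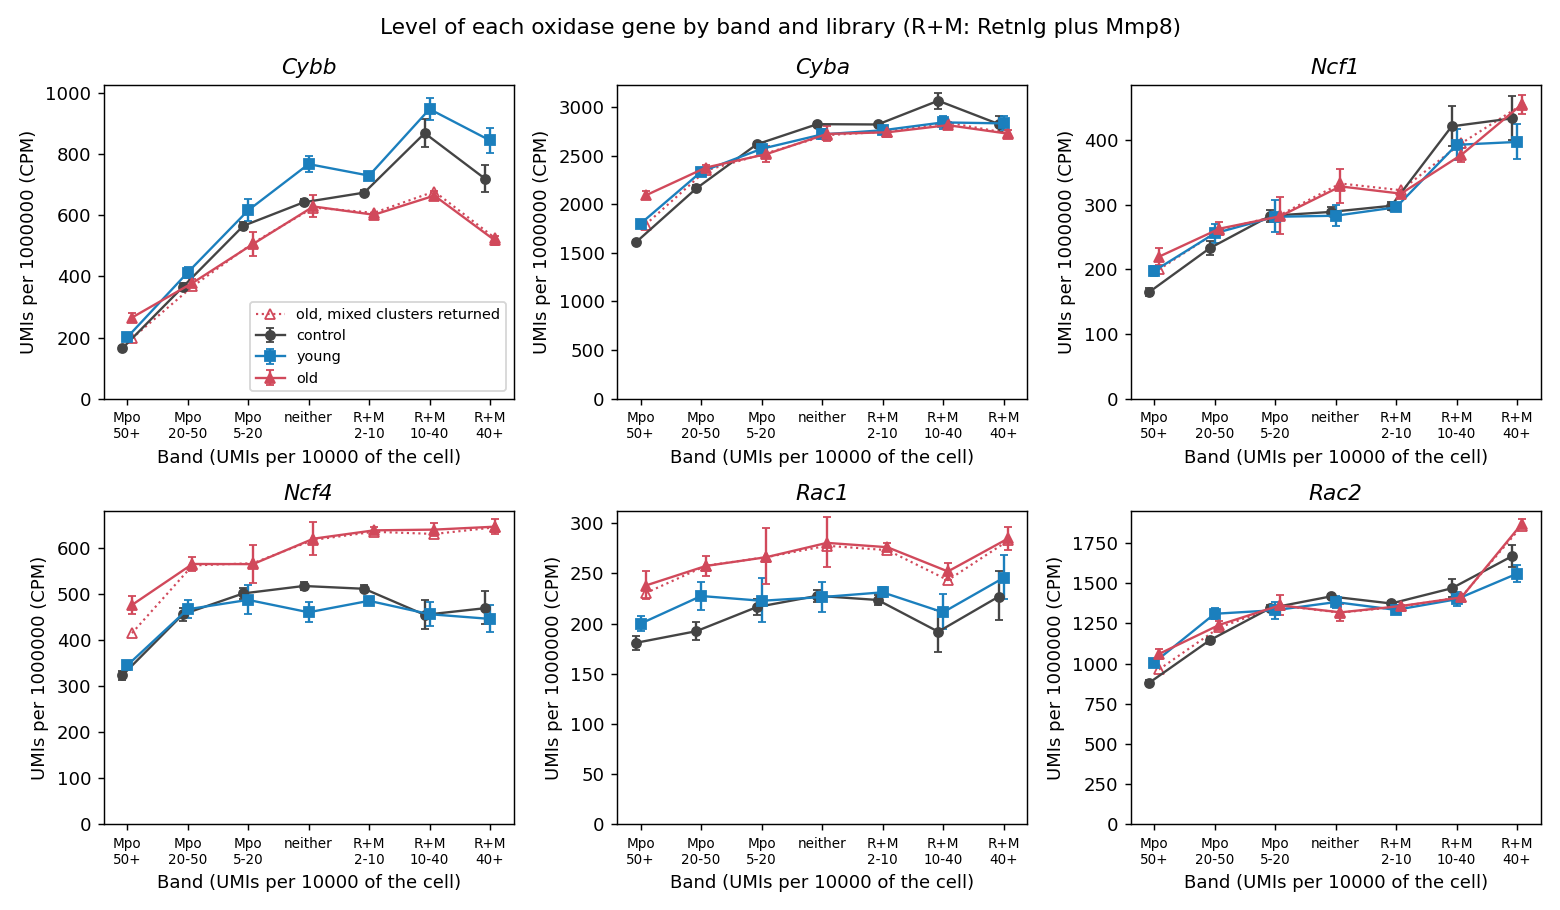
Level of the 6 oxidase genes in UMIs per 1000000 (CPM, vertical axes from 0) in 7 bands ordered from high Mpo to high Retnlg plus Mmp8 (R+M), for the control, young and old library; bars are exact 95% Poisson intervals, and the dotted line is the old library with the unmarked cells of 2 mixed clusters returned. Cybb climbed from 164 to 869 CPM in the control library, Rac1 stayed between 181 and 228 CPM there, and the old library was above both others for Ncf4 and Rac1 in every band.

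Cyba encodes p22phox, without which gp91phox is degraded. It lies on the minus strand of chromosome 8 from 122424776 to 122432930 and is overlapped by Gm20388 on the other strand, with which reads could be confused if strand was not used in counting. Its window, chr8:122432891-122433190 on the minus strand, is shown beside that of Cybb because the products of these genes form 1 complex; it held neither motif, nor the TATA box TATAAA that 13.6% of all windows held, and its GC content was 60.7%, against 35.3% for Cybb and a median of 52.7% over all windows.

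Cyba: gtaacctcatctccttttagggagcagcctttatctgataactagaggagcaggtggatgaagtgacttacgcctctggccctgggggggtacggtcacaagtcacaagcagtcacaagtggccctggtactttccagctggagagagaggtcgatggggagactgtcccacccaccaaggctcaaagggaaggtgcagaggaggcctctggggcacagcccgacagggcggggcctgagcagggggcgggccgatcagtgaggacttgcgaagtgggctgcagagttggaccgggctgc

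Unlike its partner, Cyba was already past 50% of its highest level among the Mpo-rich cells. It had 1607 CPM (1587 to 1627) in the first band of the control library, 2162 in the second and 2616 in the third, and then stayed between 2820 and 3064. The young library began at 1801 CPM and reached 2841 in the sixth band. In the old library Cyba went from 2090 to 2813 CPM, and began at 1790 with the unmarked cells returned. The first band stood at 52.4%, 63.4% and 74.3% of the highest in the control, young and old library, the last of these being 63.0% with those cells returned. Thinned to 3000 UMIs, at least 98.3% of the cells of every band and library had a Cyba UMI. Both membrane subunits therefore increased over the same bands but from different starting points, 18.9% of the highest for Cybb and 52.4% for Cyba in the control library. Cybb made up 9.28% (8.94 to 9.64) of the summed UMIs of this pair in the first control band and 22.1% (21.1 to 23.1) in the sixth. In the young library that share went from 10.0% to 25.01%, and in the old library from 11.3%, or 9.94% with the unmarked cells returned, to 19.1% before it dropped to 16.0% in the last band.

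Ncf1 encodes p47phox, the organizer whose phosphorylation starts assembly. It lies on the minus strand of chromosome 5 from 134220053 to 134229625 and overlaps Gtf2ird2 on the other strand. The window of Ncf1, chr5:134229576-134229875 on the minus strand, is given as the only one matched among the cytosolic subunits and also held none of the 3 motifs.

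Ncf1: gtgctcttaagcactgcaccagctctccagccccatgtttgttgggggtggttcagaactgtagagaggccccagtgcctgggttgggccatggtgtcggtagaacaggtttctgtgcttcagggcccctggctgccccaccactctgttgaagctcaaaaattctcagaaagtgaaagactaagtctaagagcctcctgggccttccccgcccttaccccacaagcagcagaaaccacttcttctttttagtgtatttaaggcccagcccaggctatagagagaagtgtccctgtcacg

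In CPM, Ncf1 rose in 2 steps. The control library had 165 CPM (159 to 172) in the first band, 233 in the second and then a shelf of 283, 289 and 299 CPM, before 422 (391 to 454) in the sixth band and 434 in the last. In the young library the levels were 198, 256, 282, 283, 296, 393 and 398 CPM. The old library had 220, 263, 282, 329, 318, 378 and 456 CPM, with a first band of 200.04 when the unmarked cells were returned. In the control and young libraries the shelf ended where Retnlg and Mmp8 passed 10 per 10000, and in the old library the level went on rising through both of the last bands. The point of 50% of the highest level was passed in the second band of all 3 libraries, at 53.7% in the control, 64.4% in the young and 57.8% in the old library; the first band of the young library was just short of it, at 49.7%. The highest band was 2.63, 2.01 and 2.07 times the lowest in the control, young and old library, and 2.27 times in the old library with the unmarked cells returned.

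Ncf4 encodes p40phox, which binds phosphatidylinositol 3-phosphate on the phagosome. It lies on the plus strand of chromosome 15 from 78244801 to 78262580 with no overlapping gene. In CPM, its course was early and flat. From 324 CPM (315 to 333) in the first control band it went to 456 in the second and 502 in the third, peaked at 518 in the fourth and was 455 and 469.7 in the last 2. The young library was highest in the third band, at 488 CPM, and stood at 446 in the last. In the old library Ncf4 kept rising slowly, from 477 CPM (415 with the unmarked cells returned) to 639 in the fifth and 647 in the last band. The first band was already at 62.5%, 70.8% and 73.7% of the highest in the control, young and old library, or 64.4% in the old library with those cells returned. With 33 abundant genes left out of the total, Ncf4 passed 50% only in the second band of each library. As UMIs per cell, its last band was at 0.644, 0.694 and 0.762 times the first in the control, young and old library. Between the cytosolic subunits the balance shifted late: Ncf4 made up 66.2% (65.1 to 67.3) of the UMIs of Ncf4 and Ncf1 in the first control band, 63.2% in the fifth and 51.9% (49.3 to 54.5) in the sixth. In the young library these shares were 63.6%, 62.1% and 53.7%. The old library stayed at 66.8% in the fifth and 62.9% in the sixth band and reached 58.7% in the last.

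Rac1 and Rac2 encode closely related GTPases that switch on the assembled enzyme, Rac2 being the form typical of blood cells. Rac1 lies on the minus strand of chromosome 5 from 143503634 to 143528036, overlapped by Daglb and Gm42502 on the other strand, and Rac2 on the minus strand of chromosome 15 from 78559167 to 78572783 with no overlap. In CPM, Rac1 was the flattest of the 6 genes. Its control levels lay between 181 CPM in the first and 228 CPM in the fourth band, its young levels between 200.1 and 246, and its old levels between 238 and 285, or from 230.4 with the unmarked cells returned. The highest band was 1.26, 1.23 and 1.198 times the lowest in the control, young and old library. In CPM, Rac2 rose early and again at the end. The control library had 881 CPM (867 to 896) in the first band, between 1346 and 1469 in bands 3 to 6 and 1669 (1603 to 1737) in the last. In the young library Rac2 went from 1007 to 1560 CPM. The last step was steepest in the old library, from 1412 CPM (1392 to 1433) in the sixth to 1871 (1842 to 1900) in the last band. As UMIs per cell, Rac2 fell from the fifth to the last band. It went from 12.4 to 9.01 in the control, 13.6 to 9.97 in the young and 18.4 to 14.2 in the old library. From the sixth to the last band it went from 9.004 to 9.015, 9.55 to 9.97 and 15.8 to 14.2 in the control, young and old library. Rac2 made up 83.0% of the UMIs of both GTPases in the first control band and 88.0% in the last, 83.4% and 86.4% in the young, and 81.7% (80.7% with the unmarked cells returned) and 86.8% in the old library.

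The order of onset was read from the band in which each gene first reached 50% of its highest level. Rac1, Ncf4, Rac2 and Cyba were past this point in the first band of all 3 libraries, Ncf1 reached it in the second, and Cybb in the third band of the control and young and the second of the old library. By the level of the first band, the control library placed Rac1 highest at 79.4% of its highest band, then Ncf4 at 62.5%, Rac2 at 52.8%, Cyba at 52.4%, Ncf1 at 38.1% and Cybb at 18.9%. The neighbours Rac2 and Cyba were not apart by more than their counting error. The young library gave the same sequence at 81.5%, 70.8%, 64.6%, 63.4%, 49.7% and 21.2%. In the old library the sequence was Rac1 83.5%, Cyba 74.3%, Ncf4 73.7%, Rac2 56.7%, Ncf1 48.2% and Cybb 39.9%. With the unmarked cells returned it was Rac1 81.5%, Ncf4 64.4%, Cyba 63.0%, Rac2 51.9%, Ncf1 44.0% and Cybb 29.1%, which differs from the other libraries only in placing Cyba before Rac2. In each library the catalytic subunit thus began lowest relative to its own highest level. Its membrane partner, p40phox and the GTPases began above 50% of theirs. A late second step was seen in Ncf1 and Rac2 in CPM. As UMIs per cell both fell from the fifth to the last band in all 3 libraries. From the sixth to the last band, Rac2 UMIs per cell were level in the control, rose in the young and fell in the old library.

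Cut into 20 groups of equal size by the ratio of Retnlg and Mmp8 to Mpo, the cells gave a similar sequence. Cybb reached 50% of its highest group at percentile 22.5 in the control, 27.5 in the young and 7.5 in the old library, and Ncf1 at 17.5, 7.5 and 7.5. The other 4 genes did so in the first group, at percentile 2.5, in each library. Onset depends on the total used: when 33 abundant genes were left out of it, Cyba, Ncf4, Rac1 and Rac2 of the control library passed 50% in bands 2 or 3 and Ncf1 in band 3, level with Cybb. On that total Ncf1 and Cybb were level in band 3 of the young library too, whereas old cells gave band 4 for Ncf1, after band 3 for Cybb. As UMIs per cell, Cybb passed 50% in the second band of all 3 libraries.

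**Figure D2:**
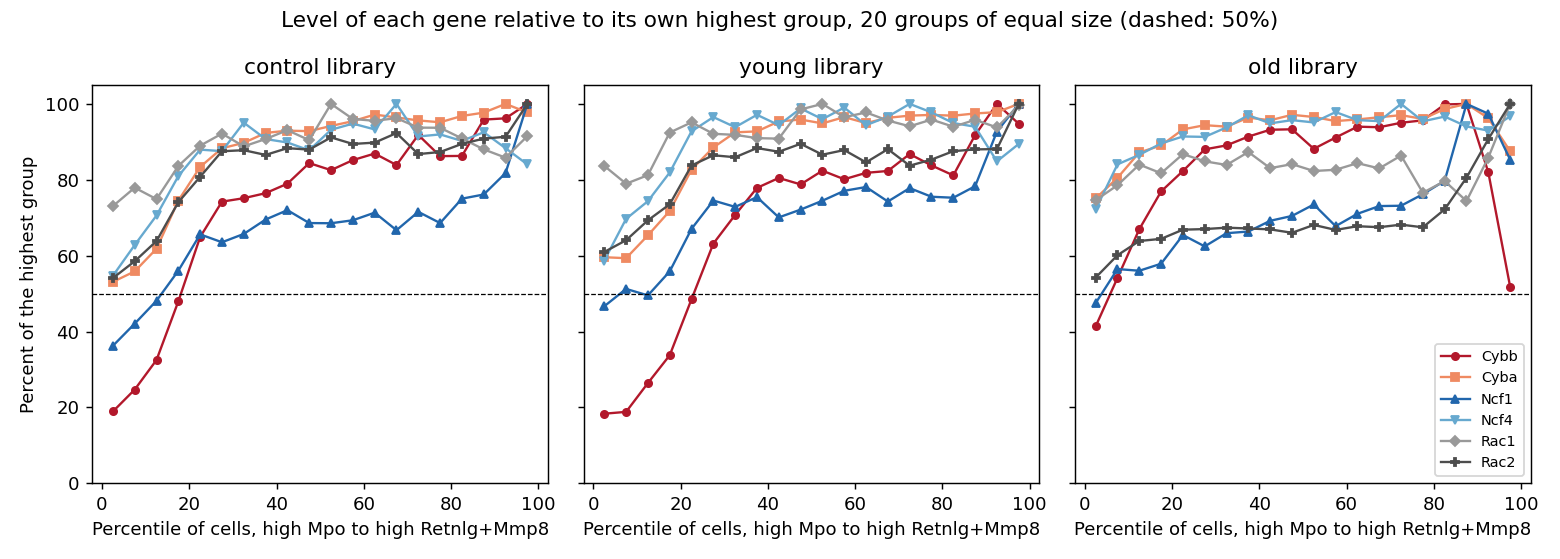
Level of each oxidase gene as a percent of its own highest group (vertical axis) in 20 groups of equal cell number, ordered from high Mpo to high Retnlg plus Mmp8 (horizontal axis, percentile), with 1 panel for each library and a dashed line at 50%. Cybb crosses the line at percentile 22.5 in the control and 27.5 in the young library, after the other 5 genes.

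From the first to the last band, 4 of 6 genes (Cybb, Cyba, Ncf1 and Rac2) passed a limit of 1.5 times higher in the control and young libraries and 3 of 6 (without Cyba) in the old, or 5 of 6 (Rac1 excepted) with the unmarked cells returned. Over all genes with at least 10 CPM, 16.5% passed this limit upward and 61.1% downward in the control library, 13.7% and 60.1% in the young, and 14.8% and 61.7% in the old. None of the 6 genes was below its first band at the end, except Cyba of the old library (log2 ratio -0.29) when the band limits were doubled. This direction is one of CPM. As UMIs per cell, Cyba, Ncf4, Rac1 and Rac2 were lower in the last band than in the first in all 3 libraries, Rac1 at 0.557 times in the control, while Cybb was 1.94 times higher in the control, 2.26 times in the young and 1.10 times in the old library, and Ncf1 1.17, 1.08 and 1.16 times. A late control cell held on average 3.89 Cybb UMIs, against 2.001 in an early one and 6.35 in the fourth band.

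Detection in single cells was also lower in the first than in the last band of each library. Thinned to 3000 UMIs, 9.32% (7.76 to 11.1) of the control cells of the first band had a UMI of each of Cybb, Cyba, Ncf1 and Ncf4, 22.1% of the second, 35.5% of the third and 53.8% (47.7 to 59.8) of the sixth. In the young library this share went from 12.5% in the first to 42.0% in the third, 36.4% in the fourth and 47.6% in the last band. The old library went from 18.9% to its highest share, 49.0% (40.5 to 57.4), in the fourth band and had 43.4% in the last. UMIs of these genes were also found in other cells, and whether free RNA or doublets, which were not removed, gave them was not tested. The 74 erythroid-like cells of the young library, which should lack these phox genes, had a median of 10185 UMIs and a thinned share of 68.9% (57.1 to 79.2) for Cyba, 25.7% (16.2 to 37.2) for Cybb, 16.2% for Ncf1 and 28.4% for Ncf4, next to 42.9%, 44.3% and 63.0% for the last 3 in the first young band with a median of 12236 UMIs. Cybb had 86.1 CPM (66.6 to 110) and Ncf4 102 CPM in them, below the 201 and 345 CPM of that band, and Cyba 531 CPM, below 1801. These cells also carried 21294 CPM of the neutrophil markers.

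**Figure D3:**
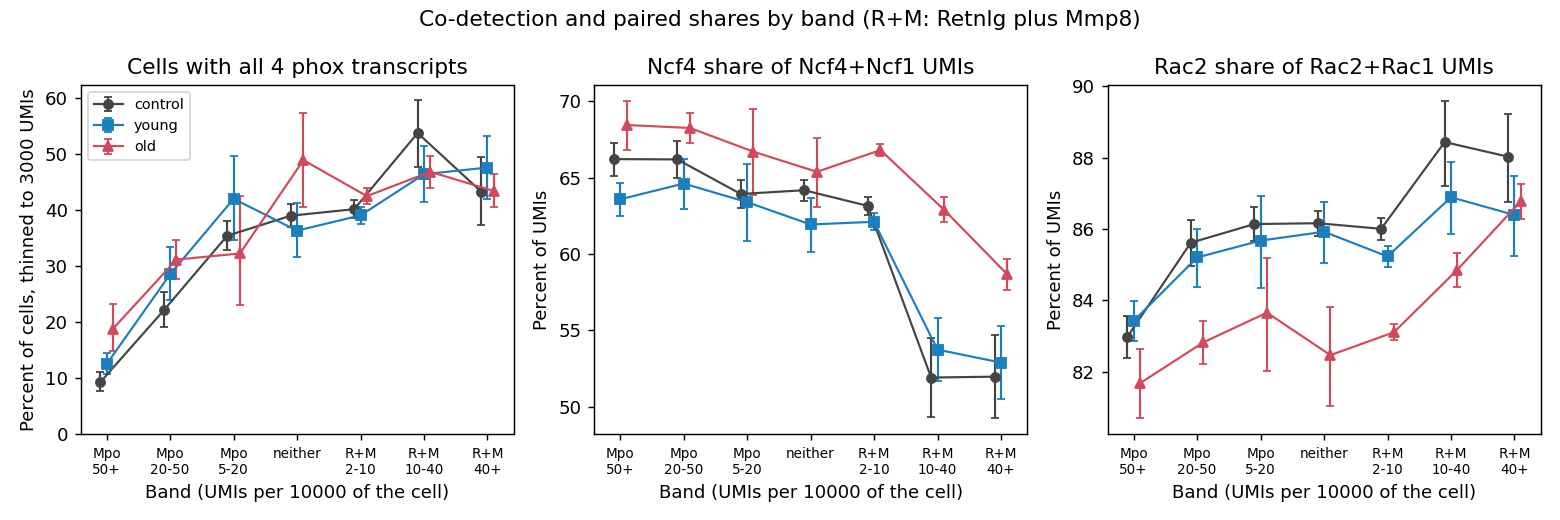
Percent of cells, thinned to 3000 UMIs, with a UMI of each of Cybb, Cyba, Ncf1 and Ncf4 (left, axis from 0), and the share of Ncf4 in the UMIs of Ncf4 and Ncf1 (middle) and of Rac2 in those of Rac2 and Rac1 (right), by band and library; bars are exact 95% binomial intervals, and the middle and right axes do not start at 0. Co-detection in the control library rises from 9.32% to 53.8% by the sixth band, and the Ncf4 share drops there to 51.9%.

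Between the libraries, 0 of the 6 genes differed by 1.5 times over all banded cells in any of the 3 comparisons. Of all genes tested, 5.13% passed this limit upward and 12.4% downward in old over young, 5.83% and 12.1% in old over control, and 2.59% and 3.59% in control over young. The comparisons share libraries and are not independent. The 7 monocyte markers summed to 1509, 2273 and 1448 CPM in the banded cells of the control, young and old library, nearly all of it Ly6c2, and their part in the ratios was not tested. The median log2 ratio of all genes was -0.11 in old over young and -0.098 in old over control.

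The library ratios of Cybb were not alike in all bands, although the difference between bands could not be tested. Over all banded cells it had 546 CPM in the control, 607 in the young and 564 in the old library, so that the old library lay above the control (log2 ratio 0.05) and below the young (-0.11). With the 7 bands weighted equally the levels were 571, 646 and 509 CPM, and the old library lay below both, at -0.17 (-0.20 to -0.13) against the control and -0.34 against the young. In the last band the old library had 518 CPM (503 to 534), the young 845 (805 to 886) and the control 719 (676 to 764), a ratio of old over young of 0.613 and a log2 ratio of -0.71 (-0.79 to -0.62), with -0.47 (-0.57 to -0.38) against the control. That last-band difference from the young library was the only one of the members past 1.5 times in a band both with and without the unmarked cells, at -0.68 with them. A fall of this size was not rare there. Of 4975 genes tested in the last band, 1235 were at least 1.5 times lower in old over young and 477 higher. Their middle value was -0.17, and Cybb stood at percentile 19.3 among them, counted from the lowest. The log2 ratio of Cybb in old over young was -0.28 in bands 3 and 5 and -0.51 in the sixth. In the first band it was 0.40, and 0.69 against the control, but -0.02 and 0.26 with the unmarked cells returned. Control over young, labelled with the same age, was below 0 in all 7 bands, from -0.29 to -0.11. When the last band was split at 150 Retnlg and Mmp8 UMIs per 10000, an added alternative, the old library was lowest in both parts, with 638, 821 and 895 CPM below that limit and 339.7 (321 to 359.8), 540.1 and 733 CPM above it in the old, control and young library. In the upper part the median cell had 289.6, 300.4 and 252 UMIs of Retnlg and Mmp8 per 10000 in the old, control and young library. Depth moved with the library here, since the last-band median was 7051 UMIs in the old and 4917 in the young library, and its part in the difference was not tested. As UMIs per cell, the last band had 3.94 in the old, 5.40 in the young and 3.89 in the control library, where depth was lower. Over all banded cells the sign of old over young turned with UMIs per cell, from -0.11 to 0.18.

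Ncf4 was higher in the old library throughout. It had 624 CPM there over all banded cells, against 451 in the young and 475 in the control library, log2 ratios of 0.47 (0.45 to 0.49) and 0.39 (0.37 to 0.41). All 7 bands had the same direction in both comparisons, from 0.21 to 0.53 against the young and 0.17 to 0.56 against the control library, with every interval above 0. With the unmarked cells returned these ranges were 0.22 to 0.53 and 0.18 to 0.47. Control over young was 0.08 (0.06 to 0.10) for this gene. Among all genes tested, Ncf4 stood at percentile 92.8 against the young and 88.6 against the control library over all banded cells. In the third band it stood at 62.1 and 59.4, its lowest positions. Rac1 had 270.2 CPM in the old library, 224 in the young and 213 in the control, log2 ratios of 0.27 and 0.34, and was also higher in the old library in 7 of 7 bands of both comparisons. Its percentiles were 85.8 and 86.4 over all banded cells, and 66.0 and 71.7 in the third band. Under each of 10 alternatives the ratios of Ncf4 and Rac1 over both other libraries stayed above 0, as did those of Cyba, Ncf1 and Rac2. For Cyba, Ncf1 and Rac2 the log2 ratios of old over young were 0.08, 0.23 and 0.11 over all banded cells, and 0.01, 0.09 and 0.05 with the 7 bands weighted equally. Cyba was within 0.06 of the young library in every band but the first, where it was 0.21 higher, or 0.01 lower with the unmarked cells returned. Sums of a band do not tell fewer expressing cells from less RNA per cell. Thinned to 3000 UMIs, 69.5% (66.7 to 72.2) of the old last-band cells had a Cybb UMI. In the young library 91.8% had one, and 81.1% in the control. Such a share also falls when each cell holds less of a transcript, and the parts of both were not tested.

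**Figure D4:**
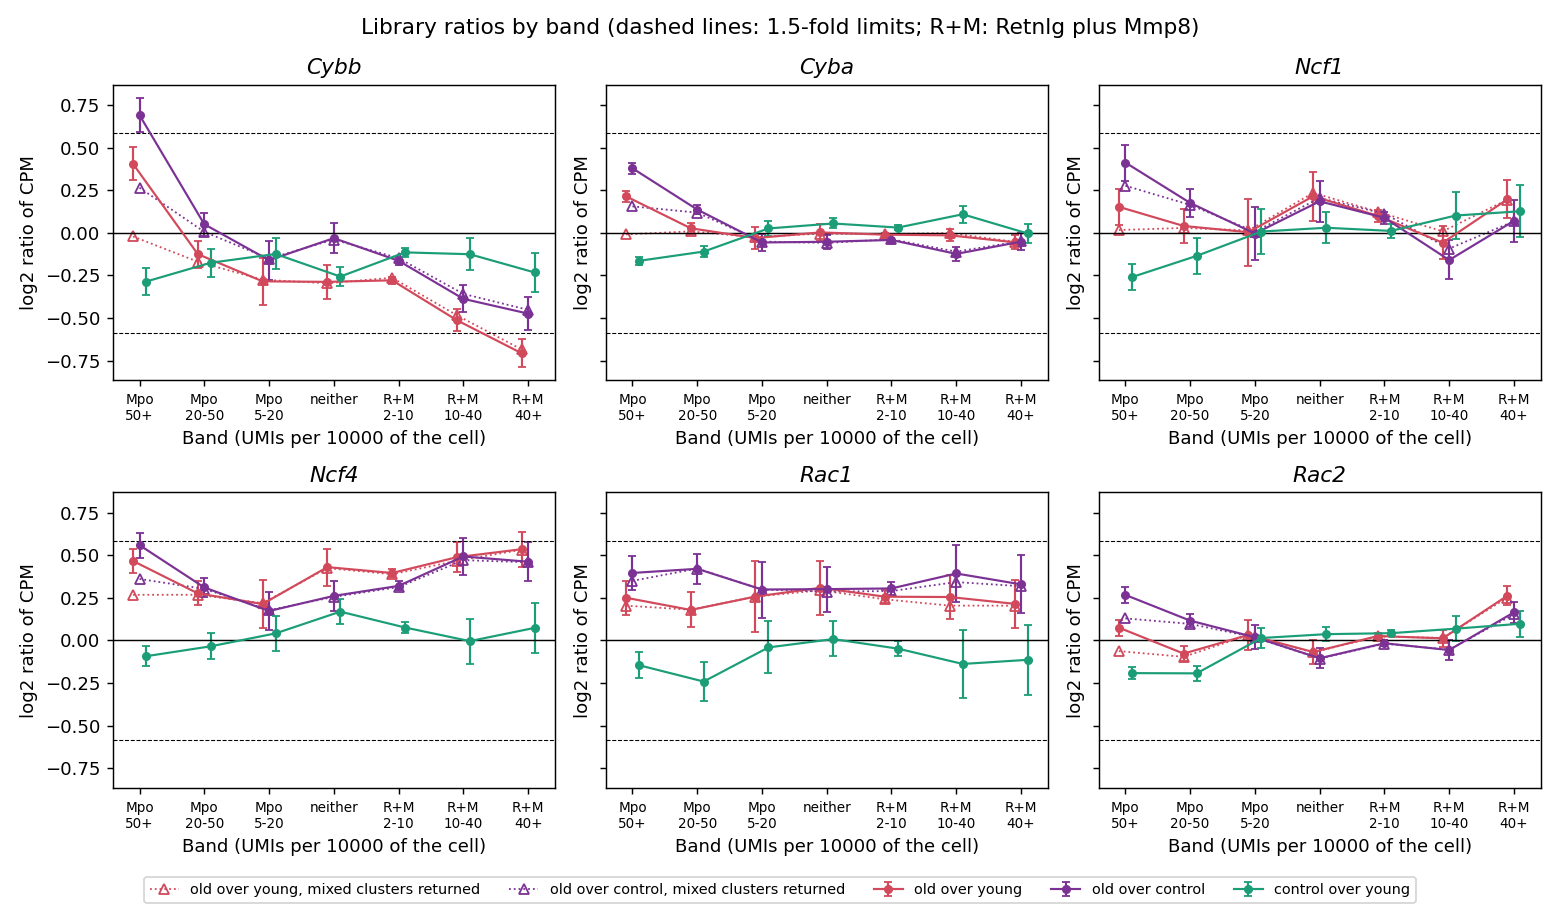
Log2 ratio of CPM between libraries (vertical axis) for each oxidase gene by band, with exact 95% intervals for counting error; dotted lines are the ratios with the unmarked cells of 2 old mixed clusters returned, and dashed lines mark 1.5 times. Old over young falls for Cybb to -0.71 in the last band, whereas Ncf4 lies between 0.21 and 0.53 in all 7 bands.

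Of 46 further genes of the pathway reported here, 33 reached 10 CPM in a band of a library. From the first to the last band 16 of 32 tested were at least 1.5 times higher and 6 lower in the control library (median log2 ratio 0.55), 10 and 4 in the young (0.21) and 12 and 5 in the old (0.18), beside the background shares given above. Prex1, a Rac exchange factor that answers chemoattractant receptors, had 2.71 CPM in the first and 26.1 in the last control band, with log2 ratios of 3.27, 2.95 and 2.57 in the control, young and old library. S100a8 and S100a9, calcium-binding proteins that carry arachidonic acid to the oxidase, rose from 50288 to 205398 and from 23806 to 119430 CPM in the control library and take up much of the total. Prkcd, a kinase of p47phox, rose from 30.5 to 72.7 CPM there, and Rap1b, a GTPase of the Ras family, from 174 to 280.

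Others were lower in CPM in the last band than in the first. Nrros, a negative regulator that lowers gp91phox protein, fell from 94.6 to 25.4 CPM in the control library while Cybb rose, with log2 ratios of -1.90, -1.75 and -1.03 in the control, young and old library. Hvcn1, the proton channel that offsets the charge of the burst, did not fall steadily. In the control library it had 82.3 CPM in the first, 102 in the fourth and 45.9 in the last band. Its levels in these bands were 103, 116 and 57.7 in the young and 112, 114 and 36.1 in the old library. Tiam1, a Rac exchange factor, fell from 23.9 to 11.7 CPM in the control library. The log2 ratios were -0.84, -0.83 and -1.63 for Hvcn1 and -1.04, -1.62 and -2.37 for Tiam1 in the control, young and old library. Those of the median gene were -0.995, -0.887 and -1.01, so a fall near these values is not particular to a gene. Cybc1, listed as BC017643 and known as a chaperone of the flavocytochrome, had 36.4 CPM in the first and 32.2 in the last control band. It went from 49.4 to 41.4 CPM in the young library and from 33.8 to 36.4 in the old. The other catalytic genes listed, Nox1, Nox3, Nox4, Duox1 and Duox2, did not pass 0.249 CPM in any band, so Cybb was the only catalytic subunit among those listed that was detected above that level. Between libraries, 1 of 29 listed genes (Rap1b, log2 ratio 0.73) was higher and 1 (Tiam1, -1.33) lower in old over young, beside 5.13% and 12.4% of all genes tested. In old over control 0 of 28 were higher (Rap1b at 0.56) and 1 (Tiam1, -1.02) lower, beside 5.83% and 12.1%.

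**Figure D5:**
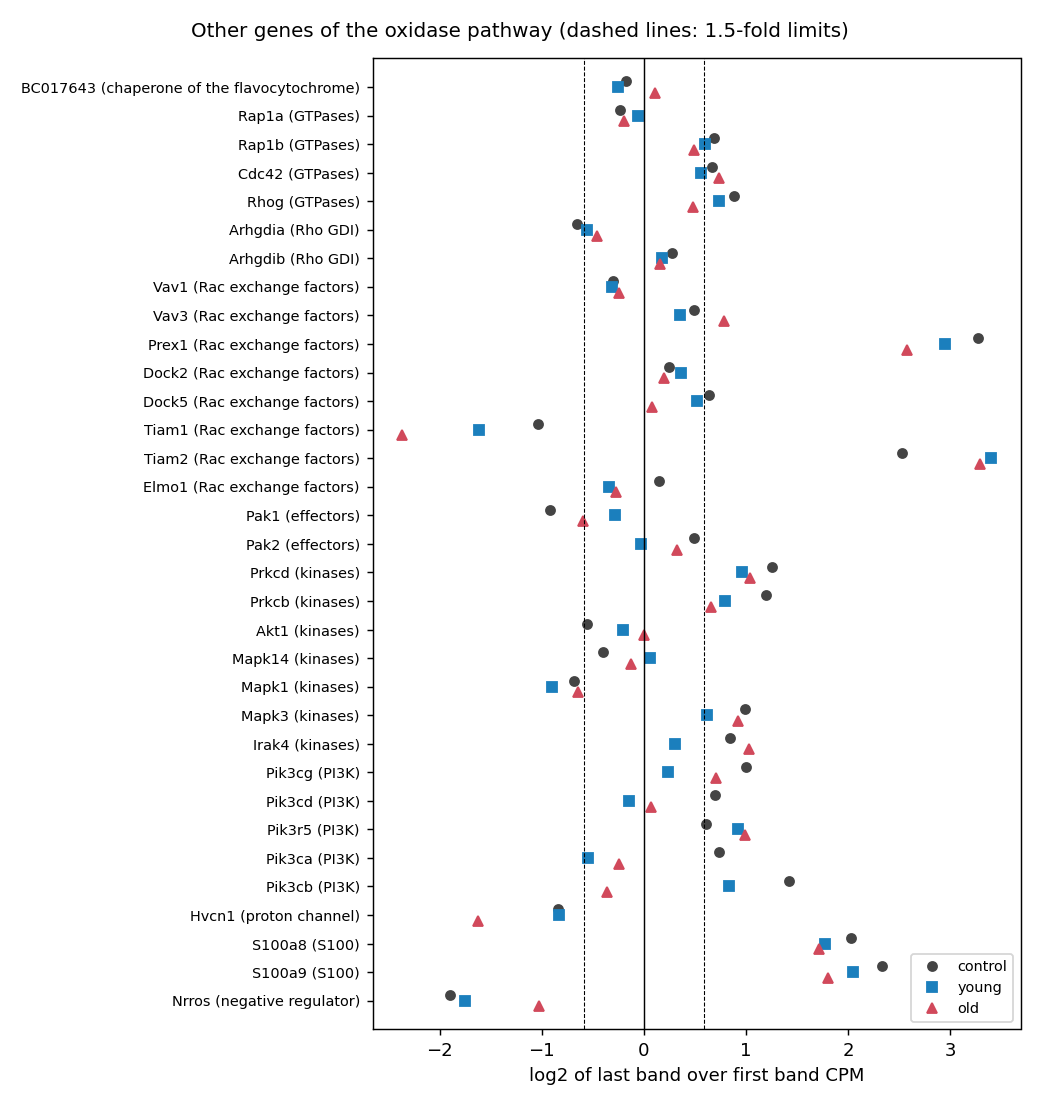
Log2 ratio of the last over the first band (horizontal axis) of the other pathway genes, with their role in parentheses and 1 point for each library; dashed lines mark 1.5 times. Prex1, S100a8 and S100a9 lie to the right of the limit in all 3 libraries and Nrros, Hvcn1 and Tiam1 to the left.

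Over the 21 points of 7 bands and 3 libraries, which share libraries and totals, the genes nearest to each member by Pearson's r of log2(CPM + 1) were named among 2221 genes. Cybb went with Lyz2 (r = 0.975), Adpgk (0.968) and Cyba (0.967), and Cyba with Itgb2l (0.968), Cybb (0.967) and Pglyrp1 (0.967). Ncf1 was nearest to Fcer1g, Zyx and Slc31a2 (0.968 to 0.969), and Rac2 to Zyx, Pilrb2 and Msra (0.961 to 0.965). Ncf4 went with Gnb2 (0.937) and Bin3, and Rac1 with Ptpn6 (0.892), Bin3 and Ubald2. Within single libraries r of Rac1 was only 0.706 to 0.806 with Ptpn6 and 0.628 to 0.774 with Bin3. With Ubald2 it was 0.927 in the control, 0.197 in the young and 0.906 in the old library. For Ncf4 and Gnb2 these values were 0.936, 0.791 and 0.991. Among the members themselves, over all 21 points, r was 0.967 for Cybb and Cyba, 0.929 for Ncf1 and Rac2 and 0.851 for Ncf4 and Rac1, but 0.298 for Cybb and Rac1. The values of Cyba with Ncf1 (0.876) and with Rac2 (0.869), and of Cybb with both (0.837 and 0.807), lay near or above that of Ncf4 and Rac1.

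UMIs of the oxidase genes were also counted in the monocyte-like cells set aside from the bands. The 405 in the young library had 540.0 CPM (516 to 564) of Cybb, between young bands 2 and 3, and 2236 CPM of Cyba, beside 86.1 and 531 CPM in the erythroid-like cells of that library. Their Rac1 level was 450 CPM (428 to 472), above the 246 CPM of the highest young band, and their Rac2 level 738 CPM, below the 1007 CPM of the lowest. The erythroid-like cells had 150 CPM of Rac1 and 420 of Rac2. Ncf1 stood at 131 CPM in the monocyte-like cells, under the first young band, and at 53.5 CPM in the erythroid-like ones. The monocyte-like cells also carried 29384 CPM of the neutrophil markers, whose part in these levels was not tested. In the 62 old monocyte-like cells Rac1 had 446 CPM and Cybb 448 CPM. A control group of 71 cells with monocyte markers was led by the basophil transcripts Prss34 and Mcpt8 and is left without a name; Rac1 had 374 CPM and Cybb 397 CPM in it.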

How the data were processed

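The authors made 3 libraries of CD133+ bone marrow cells by 10x Chromium 3′ chemistry. The deposited matrices hold whole UMI counts for each gene and cell, without normalization. Per the submitters' processing notes, STAR, Cell Ranger 2.1.0 and mm10 were used; whether strand was used in counting is not given in the sources used here. Of the gene identifiers 27645 were found in GENCODE M21.

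Cells with under 200 genes, over 20% mitochondrial UMIs, or a depth under percentile 5 or over percentile 95 (control alone, young and old together) were removed. Leiden clusters made within each library, with the members and pathway genes held out, were set aside where at least 3 markers of another cell type had 10 CPM or more and 10 times the level of the other cells. Doublets were not removed. Cells with at least 20 Mpo and 10 Retnlg and Mmp8 UMIs per 10000, 17 control, 59 young and 31 old, were left out of the bands. UMIs were summed by band and library. Intervals are exact at 95% (Poisson, Clopper-Pearson, or conditional binomial for ratios), for counting error only. Depth was 3423 to 18081 UMIs per kept control cell.

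The members, lists and the rule for the genes named (the members, the pathway list, and the 3 genes of most similar profile) were chosen with earlier results of these data known; 2 of the genes it takes are not reported here. Other cell filters, scalings, bands and limits were tried. On simulated counts with 200 changed genes, 100% of the genes changed 2 times passed the limit of 1.5 times in each library comparison, with 0 unchanged genes passing. For onset, 21 of 21 simulated profiles per library gave their true band. These runs check the calculation only. The simulated profiles were sharp steps, and the counts had no spread between libraries, so gradual courses and such spread were not covered. The work used matplotlib 3.10.9, leidenalg 0.10.2, scanpy 1.11.5 (Scrublet included), scipy 1.17.1, numpy 2.4.6, scikit-learn 1.9.0 and pandas 2.3.3 under Python 3.11.15.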

Additional observations from a re-analysis of the deposited data

Results flagged for a closer look

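Some library ratios had opposite signs in the first and the last band, with both counting intervals away from 0; whether the bands differ was not tested, because each group is 1 library. For Cybb, the log2 ratio was 0.40 in the first and -0.71 in the last band for old over young, and 0.69 and -0.47 for old over control. For Cyba it was 0.21 and -0.06 for old over young, and 0.38 and -0.05 for old over control. The first-band values of the old library rest on 350 cells, and with the unmarked cells of the mixed clusters returned they were -0.02 and 0.26 for Cybb and -0.01 and 0.16 for Cyba. For Rac2 it was -0.19 and 0.10 in control over young, which carry the same label of age.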

How the results depend on the processing

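No paired analysis was possible because each group is 1 library, and leaving out a replicate was not possible for the same reason. Of 234 bands of half-maximum recomputed for the 6 genes and 3 libraries, 195 stayed the same and 39 moved. Ncf1 of the young library, at 49.7% of its highest in the first band, moved to band 1 with no cell set aside, with cells set aside one by one, with UMIs per cell, with band limits halved and at 25% of the highest level, and to percentile 7.5 in 20 equal groups; Cybb of that library moved there to percentile 27.5. With 33 abundant genes left out of the total, the control library gave band 3 for Cyba, Ncf1 and Rac2 and band 2 for Ncf4 and Rac1, the young library band 2 for Cyba, Ncf4, Rac1 and Rac2 and 3 for Ncf1, and the old library band 3 for Cybb and Rac2, 2 for Cyba and Ncf4 and 4 for Ncf1. With UMIs per cell, Cybb of the control and young libraries moved to band 2 and Ncf1 of the control and old libraries to band 1. Halved limits moved Cybb of the control and young libraries to band 2 and Ncf1 of the old library to band 1. Doubled limits moved Ncf1 of the control library to band 3, Rac2 of the control and old libraries to band 2, and Cybb and Ncf1 of the old library to band 1. At 25% of the highest level Cybb reached band 2 in the control and young libraries and band 1 in the old, and Ncf1 band 1 in the control and old libraries. With the lowest limit of Retnlg and Mmp8 dropped, or the mixed clusters returned, both added after seeing the data, no band of half-maximum moved.

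As UMIs per cell the log2 ratio of the last over the first band changed sign to -0.36 for Cyba and -0.25 for Rac2 in the control, -0.24 and -0.27 in the young, and -0.014 for Rac2 in the old library, because late cells hold fewer UMIs. Of the ratios under 1.5 times, it also changed sign for Ncf4 (-0.63, -0.53 and -0.39) and Rac1 (-0.84, -0.60 and -0.57) in the control, young and old library and for Cyba in the old library (-0.45). On that scale 1 of 6 genes passed 1.5 times in old over young (Ncf4) and 3 in old over control. Of all 5573 and 5450 genes tested in these comparisons, 718 and 1066 were higher and 293 and 216 lower. Of 6417, 6550 and 6092 genes tested, 420, 422 and 479 were higher in the last band of the control, young and old library. Without abundant genes those were 2626, 2396 and 2098, with 2582 lower in the young library, and 1196, 1040 and 340 genes were lower in old over young, old over control and control over young. With no cell set aside 92 genes were higher and 377 lower in control over young. With the bands weighted equally 460 and 361 genes were lower in old over young and old over control. A minimum of 50 CPM left 121 genes higher and 125 lower in old over young, 108 and 169 in old over control, 47 and 49 in control over young, and 423 and 1614, 382 and 1511, and 409 and 1478 between bands of the control, young and old library. A limit of 2 times left 122 and 210 genes, 110 and 172, and 25 and 95 in the same 3 library comparisons.

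Of 180 library ratios of the members recomputed, 103 stayed within their counting interval and 77 moved. Depth limits the late bands, which hold 270 control and 317 young cells.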
